A study of Saccharomyces cerevisiae with 20 samples.

Results

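The RNA response of budding yeast CDC33 cells to a heat shift was examined, as RNA-seq of the strain at 37°C (3 biological replicates) against 25°C (3 biological replicates). The members were taken by rule as all genes of the RNA comparison in this strain with a baseMean of at least 20. The baseMean is the authors' mean normalized signal over all RNA-seq samples, those of both strains of the study. The members were 5346 of the 5778 genes listed, with a median baseMean of 262. Cells of both groups came from the BY4741 background of Saccharomyces cerevisiae and carried the wild-type CDC33 sequence, integrated at the native locus with the same plasmid that brought the mutations into the mutant strain. They are thus the control of an experiment on cdc33-ts4-2, a temperature-sensitive allele of eIF4E, the protein that binds the cap of mRNAs. Cultures grown at 25°C were split, and a portion was placed at 37°C for 1 h before cycloheximide, which holds ribosomes in place, was added. RNA was selected by its poly(A) tail and fragmented before sequencing.

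The files used here give values per library for parts of genes, not for whole genes. For 5′ UTRs, introns and 3′ UTRs they give the density of reads per length, divided by the same density over the coding sequence of the gene. A density of 1 means that a part of the transcript was read as often, per base, as the coding sequence. Changes in the amount of each mRNA were not analysed here, so a density can move because the part itself or the coding sequence moved, and these cannot be told apart. For the same reason the heat shift was not checked by the level of heat shock genes. A value in every library was present for the 5′ UTR of 1213 members, the intron of 90 and the 3′ UTR of 1203, or 1254 genes in all, and the other 4092 members were not analysed further. A filter on low mean density left 1113, 87 and 1198 genes for testing.

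Yeast mRNAs are short and compact, and few genes hold an intron. Most of the intron-bearing transcripts in a growing cell come from genes of cytosolic ribosomal proteins, whose transcription is known to drop for a time after heat stress. The spliceosome recognises the start of an intron by a short 5′ splice site. It joins that start to an adenosine of the branch point before the exons are ligated. Intron reads in poly(A) RNA thus mainly report transcripts that still hold the intron. Reads on UTRs depend on where transcription starts and where the mRNA is cleaved and polyadenylated. In yeast many genes have several start and polyadenylation sites, and which of them is used can change with growth conditions.

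The sequencing depth of the libraries is unknown, since the files used here hold no counts. The library of CDC33 cells at 25°C, replicate 1, stood apart in 3′ UTRs, with a median density of 0.613, against 0.969 to 1.01 in the other 25°C libraries. Its 3′ UTR coverage was 0.991, against 1.38 and 1.43. Counts, medians and calls that changed without it are given beside the result. The study describes the RNA-seq replicates as biological. The whole series holds 20 samples, and the mutant strain has 6 RNA-seq libraries of its own.

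**Figure D1:**
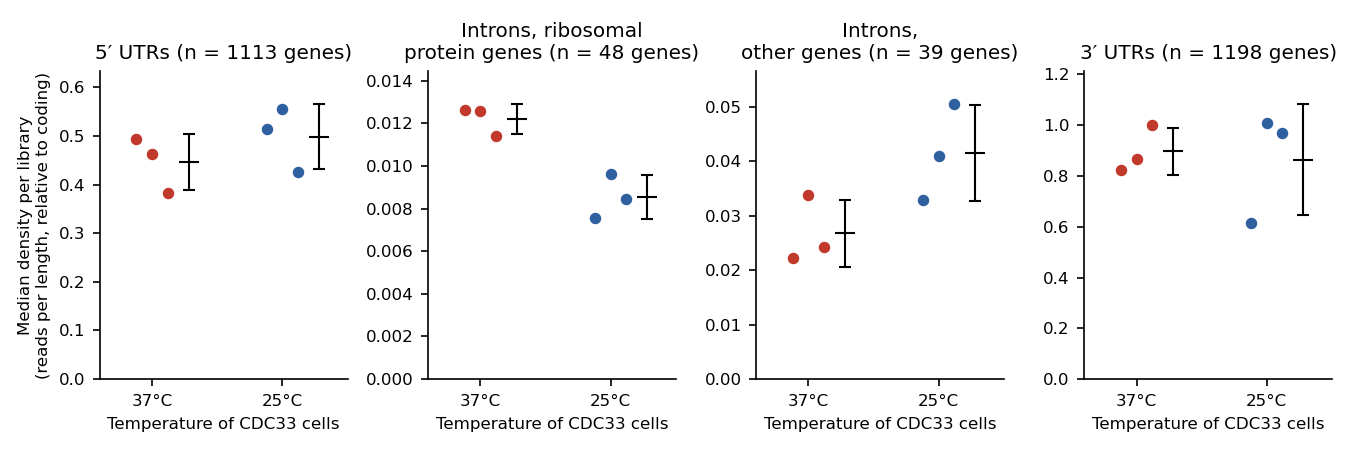
Median density per library in CDC33 cells at 37°C (red) and 25°C (blue), for 5′ UTRs, introns of ribosomal protein genes, introns of other genes and 3′ UTRs. Points are libraries, and bars give the mean and SD of 3 libraries. In the introns of ribosomal protein genes the 37°C libraries lie between 0.0114 and 0.0126, all above the 25°C libraries (0.00755 to 0.00962), while in the other panels the temperatures overlap.

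Introns showed the clearest response, and it ran in opposite directions in different genes. At 37°C the intron density of 8 genes rose, all of them genes of cytosolic ribosomal proteins, and that of 9 genes fell, among them ACT1, ARP2, PFY1 and COF1 of the actin cytoskeleton. These are 9.2% and 10.3% of the 87 genes tested by limma on log2(density + 0.005), called at an adjusted p of 0.05 or less. Fold changes on this scale are pulled toward 0 where densities are low. RPL40B and RPL37A passed the filter on low density through the 37°C libraries alone, and ACT1 and CPT1 through the 25°C libraries alone. Their calls add no support to the counts. Counted without a model, all 3 libraries at 37°C lay above all 3 at 25°C for 28 genes (32.2%) and below them for 13 (14.9%). Without replicate 1 at 25°C, 2 genes were called higher (RPL39 and RPL40B) and 4 lower (RPS14B, ACT1, PFY1 and CPT1). Of the other 11, the 10 followed in each alternative had an adjusted p between 0.0504 for RPS17A and 0.119 for RPS23B without that library. With each library centred on its own median, 16 were called higher and 9 lower. With the replicate number as a block, 5 ribosomal protein genes were called higher and 2 lower, and 7 other genes lower. RPS30A, RPS23B, RPL37A and SAR1 lost their calls with that block. The median intron density of all 87 genes was 0.0144 ± 0.00131 at 37°C and 0.0147 ± 0.00191 at 25°C (SD, n = 3 each), a difference smaller than the spread between replicates.

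The called introns all lay within coding sequences in the RefSeq annotation of build R64, and none held an annotated small RNA. Their ends are shown for 8 genes because the splice signals tell which part of the pre-mRNA the density refers to, and because genes with like signals moved in opposite directions. The first set gives the first 30 bases of the intron, with the 6 bases of the 5′ splice site in capitals.
RPL39 (chrX:75939-75968, + strand): GTATGTtagaaagatattataaatcccagt
RPL40B (chrXI:618713-618742, - strand): GTATGTtacggcgaatacagaatactatgt
RPL19B (chrII:168425-168454, + strand): GTATGTttaacagtgatactaaattttgaa
RPS30B (chrXV:678761-678790, - strand): GTACGTtaatattgtgttaaaatgctccac
RPS14B (chrX:73797-73826, + strand): GTACGTgaaaggggtgatatcctgtttaaa
RPL18B (chrXIV:64421-64450, - strand): GTATGTattgaaatctccctcccaattttc
ACT1 (chrVI:54657-54686, - strand): GTATGTtctagcgcttgcaccatcccattt
ARP2 (chrIV:399362-399391, + strand): GTATGTtgttgatatttttagtgtttgtgg

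The second set gives 30 bases around the TACTAAC sequence nearest to the 3′ end of the intron, with these 7 letters in capitals.
RPL39 (chrX:76250-76279, + strand): agtttgaacattgtTACTAACattttttac
RPL40B (chrXI:618444-618473, - strand): taaaaaatatttttTACTAACgtgaagttt
RPL19B (chrII:168748-168777, + strand): aaatgaagcaacttTACTAACatcaatatg
RPS30B (chrXV:678410-678439, - strand): tctgaatatctcatTACTAACattaaatga
RPS14B (chrX:74160-74189, + strand): gcagaagttctgttTACTAACaactatacc
RPL18B (chrXIV:64049-64078, - strand): atcctttatcccttTACTAACataacgtaa
ACT1 (chrVI:54411-54440, - strand): tactaagtctcatgTACTAACatcgattgc
ARP2 (chrIV:399451-399480, + strand): ccctatattattaaTACTAACcatctcgat

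GTATGT opened 6 of the 8 introns that rose and 7 of the 9 that fell, against 77 of the 90 introns of tested genes (85.6%) and 205 of all 281 introns of nuclear protein-coding genes in R64 (73%). GTACGT opened the introns of RPS30A and RPS30B, which rose, and that of RPS14B, which fell. TACTAAC was found in all 17 called introns, in 82 of the 90 introns of tested genes (91.1%) and in 232 of all 281 (82.6%). Only the strand that reads like the RNA was searched, and the 2 motifs do not overlap. The signals that were searched therefore did not separate the introns that rose from those that fell.

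**Figure D2:**
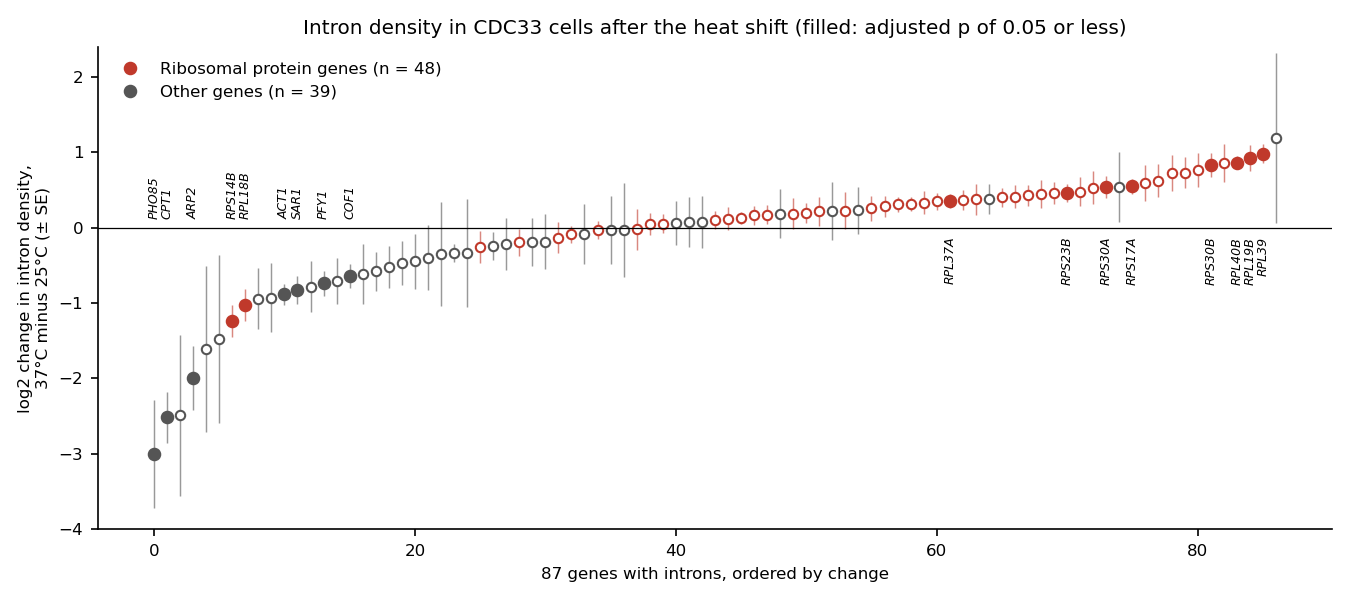
Change in intron density between 37°C and 25°C in CDC33 cells for each of 87 genes, ordered by size, as the log2 difference with its SE. Filled points passed the test; red marks 48 ribosomal protein genes and grey 39 other genes. Most red points lie above 0 (40 of 48) and most grey points below it (30 of 39).

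Ribosomal protein genes moved mostly upward. Of the 48 tested, 8 rose and 2 fell by the test, 40 had a log2 change above 0, and in 27 (56.2%) the 3 libraries at 37°C lay above all 3 at 25°C, against 32.2% of all genes tested. The median log2 change was 0.34, beside 0.10 over all 87 genes. It was much the same for proteins of the large subunit (0.35, 25 genes) and of the small subunit (0.31, 23 genes). Without replicate 1 at 25°C the median was 0.26, with 2 genes called higher and 1 lower. RPL40B, RPL37A, RPS18A, RPL13B and RPS7A passed the filter of 0.005 through the 37°C libraries alone. Their means had to be higher at 37°C, so they add no support to the counts that rose. RPL6B passed it through the 25°C libraries alone. Without the filter, 42 of 51 genes had a log2 change above 0. Of these 51, 9 were called higher and 2 lower, with a median of 0.33. Over the 48 genes the median density was 0.0122 ± 0.000693 at 37°C and 0.00853 ± 0.00104 at 25°C (SD, n = 3 each), a ratio of 1.43. Reads from the coding sequences of nearly identical paralogs were dropped unless unique, which can raise the density of such genes, so levels are not compared between genes.

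RPL39, a small protein at the exit of the ribosome's peptide tunnel, had intron densities of 0.014, 0.0157 and 0.0167 at 37°C, against 0.00411, 0.00532 and 0.00672 at 25°C. The groups did not overlap, and the density rose by a log2 of 0.98 (SE 0.13, adjusted p = 0.00546 by limma). RPL40B, which encodes ubiquitin fused to a large subunit protein, had 0.013, 0.0119 and 0.0108 at 37°C, against 0.00433, 0.00456 and 0.00393 at 25°C. Its log2 change was 0.87 (SE 0.09, adjusted p = 0.00305), the smallest adjusted p of all introns tested. Its mean of 0.00428 at 25°C was below the filter of 0.005, which it passed through the 37°C libraries alone. Both genes stayed past the threshold in each of the 14 alternatives tried.

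RPL19B, a large subunit protein, had intron densities of 0.0145, 0.013 and 0.0214 at 37°C, against 0.00511, 0.00595 and 0.0071 at 25°C. RPS30B, a small subunit protein, had 0.0193, 0.0167 and 0.0123 at 37°C, against 0.00638, 0.00626 and 0.00765 at 25°C. RPS17A, also of the small subunit, had 0.0115, 0.0109 and 0.0106 at 37°C, against 0.00511, 0.0069 and 0.00582 at 25°C. In all 3 genes the groups were apart, with log2 changes of 0.93, 0.83 and 0.55 and an adjusted p of 0.0143 for each. RPS30A, the paralog of RPS30B, had 0.0193, 0.0189 and 0.0192 at 37°C, against 0.0104, 0.0117 and 0.0127 at 25°C, a log2 change of 0.54 (adjusted p = 0.0401). RPS23B rose by 0.46 (adjusted p = 0.0401) and RPL37A by 0.35 (adjusted p = 0.0402). RPL37A, at a mean of 0.00474 at 25°C, passed the filter of 0.005 through the 37°C libraries alone, and was not called without that filter. With the replicate number as a block these last 3 no longer passed, at an adjusted p of 0.104 for RPS30A, 0.095 for RPS23B and 0.104 for RPL37A, so they rest on the unpaired fit.

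A pair of ribosomal protein genes went the other way. RPS14B, whose protein is known to bind its own pre-mRNA and hold back splicing, had intron densities of 0.076, 0.0677 and 0.0622 at 37°C, against 0.154, 0.173 and 0.178 at 25°C. It fell by 1.24 on the log2 scale (SE 0.22, adjusted p = 0.0143). RPL18B, a large subunit protein, had 0.0683, 0.0732 and 0.0784 at 37°C, against 0.151, 0.168 and 0.143 at 25°C. It fell by 1.02 (SE 0.21, adjusted p = 0.0217). The mean at 37°C was 0.408 times that at 25°C in RPS14B and 0.476 times in RPL18B.

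**Figure D3:**
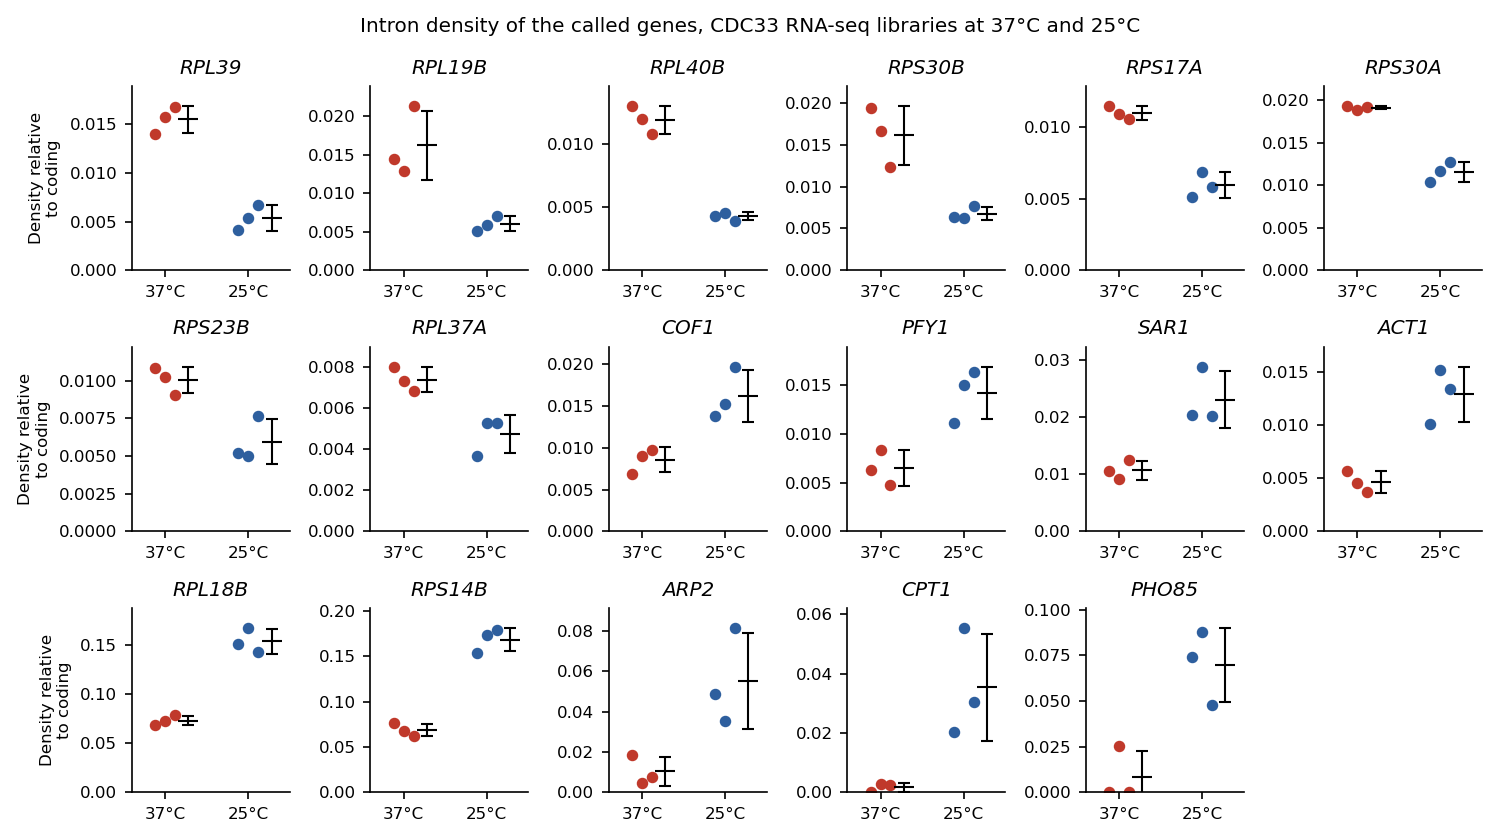
Intron density of the 17 called genes in each CDC33 RNA-seq library at 37°C (red) and 25°C (blue), relative to the coding sequence, with the mean and SD of 3 libraries. In each panel the temperatures are apart, with RPL39 at 0.014 to 0.0167 against 0.00411 to 0.00672, and ACT1 at 0.00368 to 0.00569 against 0.0101 to 0.0152.

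Among the 39 other genes with introns, none rose and 7 fell by the test, with a median log2 change of −0.40. In 11 of them (28.2%) all libraries at 37°C lay below those at 25°C, against 14.9% of all genes tested, and in 1 all lay above. ACT1 and CPT1, which fell, passed the filter on low density through the 25°C libraries alone. Without the filter the 39 other genes again had none called higher and 7 lower. Their introns were shorter, with a median length of 123 bases against 401 in ribosomal protein genes, and the replicates were less alike, with a median SD of 46.7% of the mean at 37°C and 26.7% at 25°C, against 11.9% at 37°C and 18% at 25°C in ribosomal protein genes. Over 84 genes with a single intron, its length and its log2 change had a Pearson's r of 0.43 and a Spearman's rho of 0.46. Within the 47 ribosomal protein genes r was −0.07 and within the 37 others it was 0.25, both weaker than over all genes. These correlations are across genes of the same libraries, and the part of intron length in the result was not tested.

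Several genes that fell belong to the actin cytoskeleton. The list of actin and cytoskeleton genes was chosen with earlier results of these data known, so its count is a description. Of its 6 tested members 4 fell and none rose, beside 10.3% of all introns that fell. The list's median log2 change was −0.69, and with each library left out in turn 1 or 2 members were called. ACT1, the only actin gene of yeast, had intron densities of 0.00569, 0.00459 and 0.00368 at 37°C, against 0.0101, 0.0152 and 0.0134 at 25°C. It fell by 0.88 (SE 0.14, adjusted p = 0.0117) and passed in all 14 alternatives. Its mean of 0.00465 at 37°C was below the filter of 0.005, which it passed through the 25°C libraries alone. ARP2, a subunit of the Arp2/3 complex that nucleates branched actin filaments, had 0.0187, 0.00481 and 0.00764 at 37°C, against 0.0488, 0.0354 and 0.0816 at 25°C, and its mean fell to 0.188 times that at 25°C (adjusted p = 0.0217).

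PFY1, which encodes the actin monomer-binding profilin, had intron densities of 0.00634, 0.00838 and 0.00478 at 37°C, against 0.0111, 0.015 and 0.0163 at 25°C. COF1, which encodes the filament-severing cofilin, had 0.00686, 0.00903 and 0.00973 at 37°C, against 0.0137, 0.0152 and 0.0197 at 25°C. Both groups of libraries were apart in each gene, with log2 changes of −0.74 (adjusted p = 0.0276) and −0.64 (adjusted p = 0.0374). COF1 fell outside the rule for named genes and is given because it completes the list. Of the members that did not pass, the tubulin gene TUB3 had a log2 change of −0.40 (adjusted p = 0.533), and ARP9, an actin-related subunit of chromatin remodellers, had 1.19 (SE 1.13, adjusted p = 0.462), with 1 library at 25°C listed at 0.

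The remaining genes that fell have no common role. CPT1, a cholinephosphotransferase of phospholipid synthesis, had intron densities of 0, 0.00279 and 0.00245 at 37°C, against 0.0204, 0.0554 and 0.0303 at 25°C. Its log2 change was −2.51 (SE 0.34, adjusted p = 0.00546), and it passed in all 14 alternatives. Its mean at 37°C was 0.00175, so the filter of 0.005 was passed through the 25°C libraries alone. PHO85, a cyclin-dependent kinase of the phosphate response, was listed at 0, 0.0251 and 0 at 37°C, against 0.0742, 0.0876 and 0.0478 at 25°C. Its adjusted p was 0.03, on an intron of 102 bases. It passed in 8 of 14 alternatives, and not with a pseudocount of 0.001 (adjusted p = 0.0521) or without replicate 1 at 25°C (adjusted p = 0.115). SAR1, the GTPase that builds COPII vesicles, had 0.0106, 0.00915 and 0.0125 at 37°C, against 0.0203, 0.0288 and 0.0201 at 25°C. It fell by 0.83 (adjusted p = 0.0277), and did not pass with the replicate block (adjusted p = 0.0537). YRA1, an mRNA export factor known to hold back the splicing of its own pre-mRNA and picked after its values were seen, passed only with the block (adjusted p = 0.0119, against 0.129 without it). It had 0.243, 0.196 and 0.339 at 37°C, against 0.39, 0.3 and 0.47 at 25°C, and these libraries overlapped.

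The same intron densities in cdc33-ts4-2 cells were compared to see whether the response belonged to CDC33 cells. No gene passed the test of strain by temperature (0% of 87), which asks whether the log2 change differed between strains, so no intron can be called particular to CDC33 cells. In the mutant the median log2 change of the 48 ribosomal protein genes was 0.35, beside 0.34 in CDC33 cells, and that of the 39 other genes was 0.03, beside −0.40. RPL39 had 0.0238 ± 0.0016 at 37°C and 0.014 ± 0.00179 at 25°C in the mutant, and ACT1 had 0.00434 ± 0.000533 at 37°C and 0.00996 ± 0.000892 at 25°C (SD, n = 3 each). ARP2 had 0.0582 ± 0.0208 at 37°C and 0.0498 ± 0.00313 at 25°C in the mutant. Its log2 change in CDC33 cells minus that in the mutant was −2.15 (SE 0.55), which did not pass (adjusted p = 0.0864). In ribosome profiling of CDC33 cells, whose 2 libraries per temperature were not tested, the introns of the 48 ribosomal protein genes had a median density of 0.00135 and 0.00168 at 37°C and of 0.000715 and 0.00082 at 25°C. The introns of the 39 other genes also had higher footprint medians at 37°C, at 0.00597 and 0.00669, against 0.00169 and 0.00268 at 25°C, so footprints did not share the opposite directions seen in RNA.

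In 5′ UTRs the median density was slightly lower at 37°C, and a few genes changed strongly. Over 1113 genes the median was 0.447 ± 0.0569 at 37°C and 0.499 ± 0.0667 at 25°C (SD, n = 3 each), a difference within the spread between replicates. By limma on log2(density + 0.05), 4 genes rose (0.359%) and 3 fell (0.27%). TNA1, PDR1 and FMP27, among those that rose, passed the filter on low density through the 37°C libraries alone. Their calls add no support to that count. Without a model, the 37°C libraries lay above all 25°C libraries in 47 genes (4.22%) and below them in 110 (9.88%), and at an unadjusted p under 0.05 there were 34 higher and 74 lower. The median log2 change of all genes was −0.11, and it was 0.03 after each library was centred on its median. The same 7 genes were called after centring. Without replicate 1 at 25°C, 4 genes were called higher and 1 lower, and 3 of them were among the 7 (TNA1, FMP27 and PRM15, each at an adjusted p of 0.048). The other 4 then had an adjusted p of 0.0865 for PDR1 and for ODC2, 0.111 for DOT6 and 0.104 for RAP1.

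TNA1, the high-affinity permease for nicotinic acid, a precursor of NAD+, had 5′ UTR densities of 0.404, 0.368 and 0.39 at 37°C, against 0.0414, 0.0375 and 0.0519 at 25°C. The rise was 8.88-fold in the means, with a log2 change of 2.23 (SE 0.19, adjusted p = 0.00886). TNA1 had a mean of 0.0436 at 25°C, below the filter of 0.05, and so passed that filter through the 37°C libraries alone. That fixed the direction in advance, and the call adds no support to the count of 5′ UTRs that rose. ODC2, a carrier of the mitochondrial inner membrane that exchanges 2-oxoadipate and 2-oxoglutarate, had 2.11, 1.74 and 2.83 at 37°C, against 0.311, 0.253 and 0.533 at 25°C. It rose by 2.48 (SE 0.29, adjusted p = 0.0162), and at 37°C its 5′ UTR was read more densely than its coding sequence. Neither call held in all alternatives, with an adjusted p of up to 0.0539 for TNA1 and 0.0898 for ODC2, and without replicate 2 at 25°C none of the 7 calls remained.

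PDR1, a zinc cluster activator of drug efflux pump genes, had 5′ UTR densities of 0.527, 0.234 and 0.787 at 37°C and was listed at 0 in all 3 libraries at 25°C (adjusted p = 0.0162). FMP27, a large protein of membrane contact sites, had 0.46, 0.367 and 0.2 at 37°C and was also listed at 0 in all libraries at 25°C (adjusted p = 0.00886). No fold is given for these genes, because it would depend on the pseudocount. Both passed the filter on low density through the 37°C libraries alone and so had to differ, and their calls add no support to the count of 5′ UTRs that rose. Without the filter the adjusted p was 0.0405 for PDR1 and 0.0315 for FMP27. Between 7 and 22 of the 1113 genes were listed at 0 in each CDC33 library. The filter had already removed genes of low density, so these counts do not show how rare a 0 was. In cdc33-ts4-2 cells PDR1 was listed at 0 in 1 library at each temperature, and FMP27 at 0 in all 3 at 37°C.

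The 3 genes that fell had densities near or above 1 at 25°C. RAP1, which binds promoters of ribosomal protein genes and telomeres, had 0.336, 0.362 and 0.352 at 37°C, against 1.15, 1.23 and 0.851 at 25°C. It fell by 1.48 on the log2 scale (SE 0.19, adjusted p = 0.0208), but did not pass with the replicate number as a block (adjusted p = 0.0868). RAP1 was the only called member of the list of stress and starvation regulators (1 of 11). DOT6, a repressor of ribosome biogenesis genes, had 0.425, 0.365 and 0.303 at 37°C, against 1.19, 1.22 and 0.921 at 25°C. It fell by 1.49 (SE 0.20, adjusted p = 0.0217), and did not pass with the block (adjusted p = 0.0533). PRM15, a phosphoribomutase, had 0.478, 0.647 and 0.495 at 37°C, against 1.43, 1.9 and 1.64 at 25°C, and fell by 1.54 (SE 0.18, adjusted p = 0.0162). In each of the 3 the density at 37°C was about 0.33 times that at 25°C (0.325 for RAP1, 0.328 for DOT6 and 0.326 for PRM15).

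**Figure D4:**
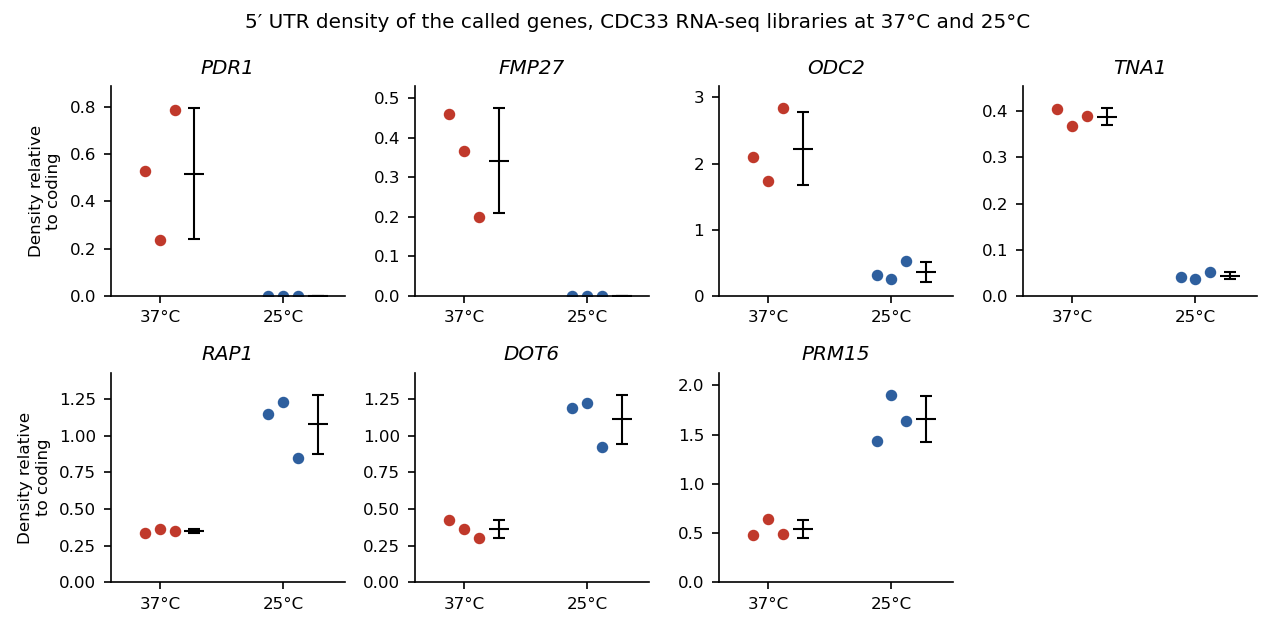
5′ UTR density of the 7 called genes in each CDC33 RNA-seq library at 37°C (red) and 25°C (blue), relative to the coding sequence, with the mean and SD of 3 libraries. TNA1 lies at 0.368 to 0.404 at 37°C against 0.0375 to 0.0519 at 25°C, and RAP1 at 0.336 to 0.362 against 0.851 to 1.23.

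In R64 the start of TNA1 (chrVII:1012485-1014089, + strand) lies 1718 bases from the nearest gene upstream, RAD2, and that of ODC2 (chrXV:758330-759253, + strand) 771 bases from MCT1, both transcribed on the opposite strand. RAP1 (chrXIV:241689-244172, + strand) lies 377 bases downstream of PPN2, DOT6 (chrV:333176-335188, - strand) 757 bases downstream of PTC2 and PRM15 (chrXIII:822763-824631, + strand) 308 bases downstream of FCP1, each on the same strand. Reads were counted by strand. In ribosome profiling of CDC33 cells TNA1 had 5′ UTR densities of 0.264 and 0.329 at 37°C, against 0.023 and 0.0394 at 25°C, and ODC2 had 1.31 and 2.71 at 37°C, against 0.0545 and 0.162 at 25°C. RAP1 had 0.018 and 0.183 at 37°C and was listed at 0 in both 25°C libraries. DOT6, which fell in RNA, had 0.0947 and 0.148 at 37°C, against 0.0304 and 0.0834 at 25°C. Higher footprint densities were general, however, since the median over all 1113 genes was 0.0954 and 0.128 at 37°C, against 0.044 and 0.0614 at 25°C. Nothing particular to these genes is read from their footprints.

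No other list held a called 5′ UTR. Heat shock chaperones (24 genes) had a median log2 change of −0.12, general stress genes (17) −0.15, amino acid synthesis genes (36) −0.14 and ribosome biogenesis genes (33) −0.07, beside −0.11 over all genes. Cytosolic ribosomal proteins had 0.02 over 42 genes, with 21 above 0 and 5 whose libraries at 37°C lay above all at 25°C. Over all 1113 genes, 374 were above 0 and 47 (4.22%) had libraries apart in this direction. Of the regulators that the rule always named, MSN2, an activator of the general stress response, had a 5′ UTR density of 0.6 ± 0.1 at 37°C and 0.72 ± 0.207 at 25°C (SD, n = 3 each). GCN4, the activator of amino acid synthesis whose 5′ UTR carries upstream reading frames, had 0.538 ± 0.0495 at 37°C and 0.616 ± 0.153 at 25°C. YAP1, an activator of the oxidative stress response, had 0.92 ± 0.187 at 37°C and 0.83 ± 0.218 at 25°C. CDC33 itself had 0.586 ± 0.0987 at 37°C and 0.503 ± 0.0562 at 25°C. In these 4 genes the libraries overlapped and the adjusted p was at least 0.826.

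The change in 5′ UTR density differed between strains for 16 of 1113 genes (1.44%), in each case with a lower log2 change in CDC33 cells. The median difference of all genes, taken as CDC33 cells minus mutant, was −0.24, and after centring 8 genes passed, 7 of them lower in CDC33 cells. ODC2 rose in CDC33 cells, but its densities in the mutant were 16, 19.4 and 16.6 at 37°C, against 0.852, 1.06 and 0.745 at 25°C. The difference in log2 change was −1.74 (SE 0.36, adjusted p = 0.0398), and −1.47 after centring (adjusted p = 0.34). RAP1 had 0.75 ± 0.102 at 37°C and 0.777 ± 0.0974 at 25°C in the mutant (SD, n = 3 each), a difference between strains of −1.43 (SE 0.25, adjusted p = 0.017), and of −1.17 after centring (adjusted p = 0.175). The difference between strains thus passed only on the deposited scale for both genes. TNA1 had 0.207 ± 0.0449 at 37°C and 0.0367 ± 0.00821 at 25°C in the mutant, and its change did not differ between strains by the test (0.67, SE 0.25, adjusted p = 0.28).

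HRP1 and RIM15, chosen after their values were seen, passed on both scales. HRP1, a factor of pre-mRNA cleavage and polyadenylation, had 5′ UTR densities of 2.78, 3.61 and 3.43 at 37°C, against 1.54, 2.31 and 2.57 at 25°C in CDC33 cells (adjusted p = 0.484), and 33.8 ± 2.56 at 37°C against 1.83 ± 0.144 at 25°C in the mutant (SD, n = 3 each). RIM15, a kinase that promotes entry into quiescence, had 1.09, 0.915 and 0.545 at 37°C, against 1.72, 1.84 and 1.49 at 25°C in CDC33 cells (adjusted p = 0.326), and 4.23 ± 0.962 at 37°C against 0.881 ± 0.053 at 25°C in the mutant. The difference between strains was −3.54 for HRP1 (adjusted p = 8.16e-05) and −3.17 for RIM15 (adjusted p = 0.000732).

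No gene passed the test in 3′ UTRs (0% of 1198 in each direction), and none in the test of strain by temperature (0%). At an unadjusted p under 0.05 there were 22 genes higher and 1 lower at 37°C by limma. In 54 genes (4.51%) the 37°C libraries lay above all 25°C libraries, and in 5 (0.417%) below. That more genes lay apart upward than downward rested on 1 library. Without replicate 1 at 25°C, a setting chosen after seeing the data, the 37°C libraries lay above the remaining 25°C libraries in 57 genes (4.76%) and below them in 310 (25.9%). With a library fewer, groups come apart more easily, so these shares are compared with each other and not with those above. The median log2 change of all genes was then −0.13 in place of 0.07. The median density was 0.896 ± 0.0924 at 37°C and 0.864 ± 0.218 at 25°C (SD, n = 3 each), and without replicate 1 at 25°C the 37°C median was lower by 0.093 in place of higher by 0.0325. With the replicate number as a block, 4 genes were called higher and none lower, among them YME2 and PRM15.

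YME2, a protein of the mitochondrial inner membrane, had 3′ UTR densities of 1.76, 1.64 and 2.08 at 37°C, against 0.629, 0.526 and 1.43 at 25°C. Its log2 change was 1.16 (SE 0.34), with an adjusted p of 0.794 without the block and 0.00901 with it. PRM15, whose 5′ UTR density fell, had 3′ UTR densities of 0.878, 0.842 and 1.43 at 37°C, against 0.508, 0.53 and 0.479 at 25°C. Its adjusted p was 0.794 without the block and 0.0466 with it. The other genes called with the block were TAF2, a subunit of the general transcription factor TFIID, and CDC24, the exchange factor of the Cdc42 GTPase, in both of which the libraries of the temperatures overlapped.

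Other 3′ UTRs with the smallest p among those whose groups were apart were not called with or without the block. VPS17, a subunit of the retromer, had 1.09 ± 0.17 at 37°C and 0.576 ± 0.192 at 25°C (SD, n = 3 each). MDM20, a subunit of an N-terminal acetyltransferase, had 0.396 ± 0.12 at 37°C and 0.204 ± 0.0629 at 25°C, and RVB1, an ATPase of chromatin remodellers, had 0.575 ± 0.037 at 37°C and 0.347 ± 0.0924 at 25°C. In the lower direction MIG1, the repressor of glucose-repressed genes, had 0.29 ± 0.048 at 37°C and 0.517 ± 0.163 at 25°C. ISW1, a chromatin remodeller, had 1.18 ± 0.149 at 37°C and 1.81 ± 0.506 at 25°C. RET3, a subunit of the COPI coat, ALT1, an alanine transaminase, and YNR021W had log2 changes of −0.37, −0.38 and −0.25. All 8 of these genes had an adjusted p of 0.999 without the block.

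By list, the median log2 change of 3′ UTRs was 0.22 for stress and starvation regulators (11 genes, 10 above 0), 0.16 for decapping and decay factors (13 genes, 12 above 0) and −0.04 for cytosolic ribosomal proteins (76 genes, 27 above 0), beside 0.07 over all 1198 genes (768 above 0). After centring these medians were 0.15, 0.09 and −0.12, beside −0.01. Without replicate 1 at 25°C they were −0.10, −0.04 and −0.32, beside −0.13, so the signs of the first and second turned. The 3′ UTR density of MSN2 was 1.89 ± 0.493 at 37°C and 1.64 ± 0.709 at 25°C, and that of GCN4 was 0.829 ± 0.0737 at 37°C and 0.859 ± 0.33 at 25°C (SD, n = 3 each). YAP1 had 1.44 ± 0.271 at 37°C and 1.39 ± 0.374 at 25°C, and CDC33 had 0.579 ± 0.146 at 37°C and 0.525 ± 0.152 at 25°C. None of these differences exceeded the spread between replicates.

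Coverage along the whole gene was compared by 3 measures. None passed the test, and only over 5′ UTRs were the libraries of the temperatures apart, lower at 37°C. The authors divided the coverage of each gene by its mean and averaged it over genes, in 100 bins for each UTR and for the coding sequence. Over 5′ UTRs the mean coverage was 0.542, 0.521 and 0.462 at 37°C, against 0.554, 0.606 and 0.547 at 25°C. The groups did not overlap, and the difference of −0.0606 had p = 0.1 by a 2-sided exact permutation test, the smallest that 3 libraries against 3 allow. Over the coding sequence, the last 10 bins over the first 10 bins gave 1.57, 1.73 and 2.05 at 37°C, against 1.49, 1.51 and 1.59 at 25°C (exact permutation test, p = 0.2). Over 3′ UTRs the mean coverage was 1.37 ± 0.127 at 37°C and 1.27 ± 0.24 at 25°C (SD, n = 3 each), with p = 0.7 by the same exact test. This difference turned to −0.0346 without replicate 1 at 25°C.

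In cdc33-ts4-2 cells 5′ UTR coverage was 0.703 ± 0.0589 at 37°C and 0.587 ± 0.0295 at 25°C, and the ratio over the coding sequence was 1.39 ± 0.0259 at 37°C and 1.48 ± 0.0437 at 25°C (SD, n = 3 each). The signs were opposite to those in CDC33 cells for both measures, and this difference was not tested.

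**Figure D5:**
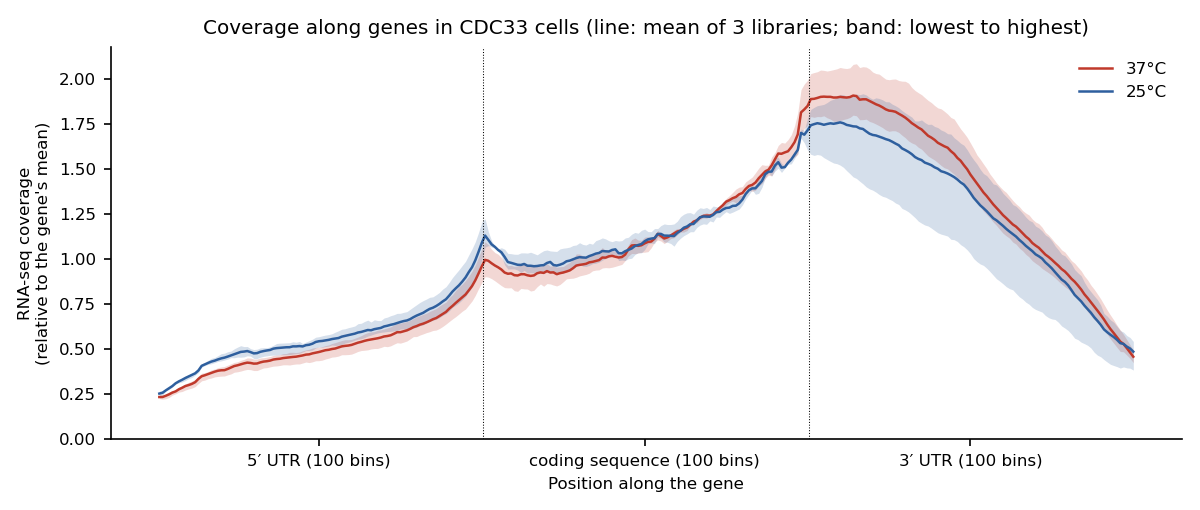
RNA-seq coverage along genes in CDC33 cells at 37°C (red) and 25°C (blue), relative to the mean of each gene, with 100 bins for each UTR and for the coding sequence. Lines are means of 3 libraries and bands run from the lowest to the highest library. Over the 5′ UTR the 37°C line runs below the 25°C line (mean 0.508 against 0.569), and over the 3′ UTR the wide 25°C band includes replicate 1, at 0.991.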

How the data were processed

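RNA-seq of CDC33 cells was examined at 37°C and 25°C, with 3 libraries each. Per the paper's methods, unique alignments to R64-1-1 were kept with STAR 2.7.10b, whose version the submitters' processing notes also give. Reads were counted per feature by strand with featureCounts. The densities are a ratio deposited by the authors, of reads per length in a region over those in the coding sequence. Coverage along genes is a signal that the authors divided by each gene's mean. The baseMean is the deposited mean signal over all RNA-seq samples of both strains, named as the authors' value. The deposited columns of log2 fold changes, standard errors, p-values and adjusted p-values in 9 comparisons hold the authors' own results and were not used. No counts were used, so the depth and the counting error per value are unknown.

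Where a gene lacked values in the density tables, the empty cells all stood last in its line, so the sample of a remaining value is uncertain, and genes without a value in all 20 sample columns were left out. The methods describe an outlier filter on these features, and whether it left the empty cells is not given in the sources used here. All sample columns were mapped to samples by their headers. Locus tags were joined to gene names through the RefSeq table of R64 (5764 of 5778 names matched). Genes needed a baseMean of at least 20 and a mean density over the 6 libraries of at least the pseudocount (0.05 for UTRs, 0.005 for introns). The moderated test of limma 3.58.1 with trend, in R 4.3.3, was applied to log2(density + pseudocount), with Benjamini-Hochberg adjustment over all genes of a region and calls at 0.05. Strain by temperature was the interaction term over 12 RNA-seq libraries. Coverage was compared by exact permutation tests (scipy 1.17.1). The steps were tested on simulated data.

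Whether replicate numbers pair the libraries was checked by the correlation of same-numbered deviations from the group means. These were 0.17, 0.245 and 0.133 in introns and 0.177, 0.205 and 0.196 in 3′ UTRs, and cultures had been split between temperatures, so blocked values are given there. In 5′ UTRs they were −0.016, −0.0704 and 0.0428. The same split of cultures holds there, so blocked values are given for RAP1 and DOT6, whose calls were lost with the block.

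The 16 gene lists, the members and the rule for named genes were chosen with earlier results of these data known. The rule took, per region, up to 8 called genes per direction with the largest change and groups apart, the 5 with the smallest p where fewer than 3 were called in a direction, up to 3 called members of each list, and HSF1, MSN2, MSN4, GCN4, HAC1, YAP1 and CDC33 where measured. COF1, YRA1, TUB3, ARP9, HRP1, RIM15, TAF2 and CDC24 were named after their values were seen. Alternatives were other pseudocounts, no filter, a baseMean of at least 100, centring, all 12 libraries in the fit, a replicate block, no trend, and each library left out. Intron positions and sequences come from the RefSeq annotation and genome of R64.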

Additional observations from a re-analysis of the deposited data

Results flagged for a closer look

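The heat shift changed 5′ UTR density differently in the strains for ODC2 and RAP1, among the genes named. The log2 change in CDC33 cells minus that in cdc33-ts4-2 cells was −1.74 for ODC2 (SE 0.36, adjusted p = 0.0398 by limma's interaction term), with a rise in both strains that was larger in the mutant. For RAP1 it was −1.43 (SE 0.25, adjusted p = 0.017), with a fall in CDC33 cells alone. After centring each library on its median neither passed (adjusted p = 0.34 for ODC2 and 0.175 for RAP1).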

How the results depend on the processing

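No direction turned under any alternative tried among the 7 called 5′ UTRs and 16 of the 17 called introns, COF1 not being followed. In 5′ UTRs the 7 calls became 4 with all 12 RNA-seq libraries in the fit, 6 with the replicate block (5 of them among the 7) and 1 to 5 with a library left out. DOT6 and RAP1 lost their calls with the block, at an adjusted p of 0.0533 and 0.0868. The 16 calls of strain by temperature in 5′ UTRs became 8 with centring, 11 with the block of replicate number within strain, and 8 to 16 with a library left out. In introns the 17 calls became 6 to 10 with a library left out, 14 with the replicate block (5 higher and 9 lower, 13 of them among the 17) and 25 with centring (16 higher and 9 lower, in place of 8 and 9). With all 12 libraries they were 13 higher and 8 lower, without trend 12 and 9, and with a pseudocount of 0.02 they were 11 and 9. Strain by temperature in introns gave 1 call with the block and 0 to 2 with a library left out. In 3′ UTRs the replicate block gave 4 calls and leaving out a library 0 to 2, and strain by temperature gave 3 with centring and 0 to 6 with a library left out. The difference in median intron density was −0.00508 by means over genes, against −0.000321 by medians. The difference in 3′ UTR coverage ran between −0.0346, without replicate 1 at 25°C, and 0.183 when a library was left out. Log2 changes that were not called turned sign with a library left out for GCN4 in 5′ UTRs (−0.33 to 0.00815, the highest without replicate 2 at 25°C) and in 3′ UTRs for GCN4 (−0.31 to 0.25), YAP1 (−0.10 to 0.26) and CDC33 (−0.10 to 0.32). After centring, 3′ UTR log2 changes were −0.056 for GCN4 and −0.00915 for YAP1. Mean differences of same-numbered pairs were compared by an exact sign-flip test, which cannot give a p below 0.25. Its p was 0.25 for 5′ UTRs and for the ratio over the coding sequence, and 0.5 for 3′ UTRs. In all 3 pairs 5′ UTR coverage was lower and the ratio over the coding sequence higher at 37°C. The cause of these shifts was not tested. Fewer libraries leave fewer degrees of freedom, and the unknown depth leaves the error of short or weakly expressed introns unmeasured except between replicates.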
